A study of Mus musculus with 3 samples.

Results

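This account covers the mouse miRNAs with numbers from miR-670 to miR-805, most of them entered in the miRNA registry from rodent sequencing, in bone marrow-derived dendritic cells (BMDCs). The rule went by number: every unstarred mouse name in that range, any letter or arm, leaving out miR-673, miR-675, miR-679, miR-708, miR-758 and miR-770. That gave 66 names with 1 probe each, out of 568 distinct mouse miRNA names on the array. The rule itself uses no measured value, but the range was chosen with earlier results of these data known. Dendritic cells are antigen-presenting cells, here grown from mouse marrow. The control group was BMDCs for which the labels name no tumour cells and describe no culture conditions. The ID8 group was BMDCs kept for 24 h in transwell plates with 3% serum with ID8 across the membrane, an ovarian tumour line of mouse origin whose name the deposited table and design text spell 1D8. The CT-26 group was BMDCs kept the same way with CT-26, a colon carcinoma line of mouse origin. Mouse strain, sex and age are not given in the sources used here, and each tumour type is stood for by 1 line. Each group had 1 array, so no test was possible, no error can be given, and a ratio tells only of the 2 arrays it was taken from.

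A miRNA is cut from a hairpin precursor and guides Argonaute proteins to messenger RNAs, mainly by pairing of its seed, which is bases 2 to 8 from the 5′ end. The 2 strands of the hairpin give a 5p and a 3p arm, and usually 1 of them is kept. Numbers were given in order of discovery, so this range holds entries that came late, many known from rodents and few with an established role. Some entries of this kind were later recognised as pieces of other abundant RNAs. For a probe named for such an entry, signal on an array need not come from a miRNA.

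The RefSeq tables for GRCm38.p6 paired 53 of the 66 names with a mature sequence, 38 of them by the exact name and 14 through a pair of arms where the array name gives none. Mature sequences from RefSeq are printed for the miRNAs that differed most between arrays, for the brightest ones, and for partners with which they share a seed. The seed is in capitals.
miR-711: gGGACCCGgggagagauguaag
miR-695: aGAUUGGGcauaggugacugaa
miR-678: gUCUCGGUgcaaggacuggagg
miR-693-5p: cAGCCACAuccgaaaguuuuc
miR-693-3p: gCAGCUUUcagauguggcuguaa
miR-690: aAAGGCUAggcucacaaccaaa
miR-691: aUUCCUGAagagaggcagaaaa
miR-706: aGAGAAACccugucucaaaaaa
miR-674-5p: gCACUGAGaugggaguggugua
miR-674-3p: cACAGCUCccaucucagaacaa
miR-761: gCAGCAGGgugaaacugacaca
miR-214-3p: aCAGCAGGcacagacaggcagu
miR-721: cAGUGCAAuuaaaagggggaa
miR-130a-3p: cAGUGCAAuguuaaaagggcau
The 67 mature sequences found held 66 distinct seeds. The single seed shared inside the range was that of miR-743a-3p and miR-743b-3p, so these miRNAs form no seed family. miR-801, miR-720, miR-709, miR-685 and miR-714, which gave signal, have no sequence printed here.

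Signal is given as background-corrected intensity, the spot's brightness minus its local background, and a floor of 50 units was set for calling a miRNA measured. Between 175 and 192 of 579 mouse probes reached it per array, and the brightest of 21 empty spots read 6 units. Of 8 negative control probes, 1 passed the floor on the control array and 1 on the CT-26 array, with readings up to 59 units. Of 10 probes for viral miRNAs, 5 or 6 passed it per array, with readings up to 5068.75 units. A reading over the floor is therefore signal above empty spots and does not by itself show that the named miRNA was present. As a check of the labelled cell type, the blood-cell miRNA miR-142-3p read 305 units in control, 409.5 in ID8-exposed and 236.75 in CT-26-exposed BMDCs. miR-142-5p, from the same hairpin, read 181.5, 501.25 and 752.25 units in that order. The myeloid miR-223 read 49, 122 and 125.5 units. On the same list of markers, miR-155, miR-22, miR-146a and miR-21 also read lowest in the control, and the last 3 had log2 ratios from 1.87 to 2.29 over it. Those ratios do not by themselves tell of cell identity. The epithelial miR-200a, miR-141 and miR-429 read at most 7.75 units, although miR-200c read between 10.25 and 22 and miR-200b between 97.25 and 143.5. The muscle miR-133a and miR-133b read at most 5 units, while miR-1 read 563, 1131.75 and 1982 and miR-206 read 121, 122.75 and 40.5. Of the lymphocyte markers, miR-150 read between 45.5 and 64.25 units and miR-181a at most 13.5. The erythroid miR-451 read 33.25, 70 and 59.5 units, and miR-486 read 98.5, 31 and 20. The part of other cells or RNAs in the ratios below was not tested, and in such bulk RNA fewer cells of a type and less RNA per cell cannot be told apart.

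Of the 66 miRNAs, 21 reached the floor on all 3 arrays, 5 on 1 or 2 arrays, and 40 on none. The share at the floor was 34.8% in control, 36.4% in ID8-exposed and 34.8% in CT-26-exposed BMDCs. For the 388 other unstarred mouse names it was 29.6%, 33.8% and 30.9%. Among the 100 brightest mouse names of each array 15 were from the range, and the range holds 11.6% of all names. These late-numbered miRNAs thus gave signal in BMDCs about as often as the other names did. Brightness differs between probes for reasons other than abundance, so the order of probes is not an order of abundance.

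**Figure D1:**
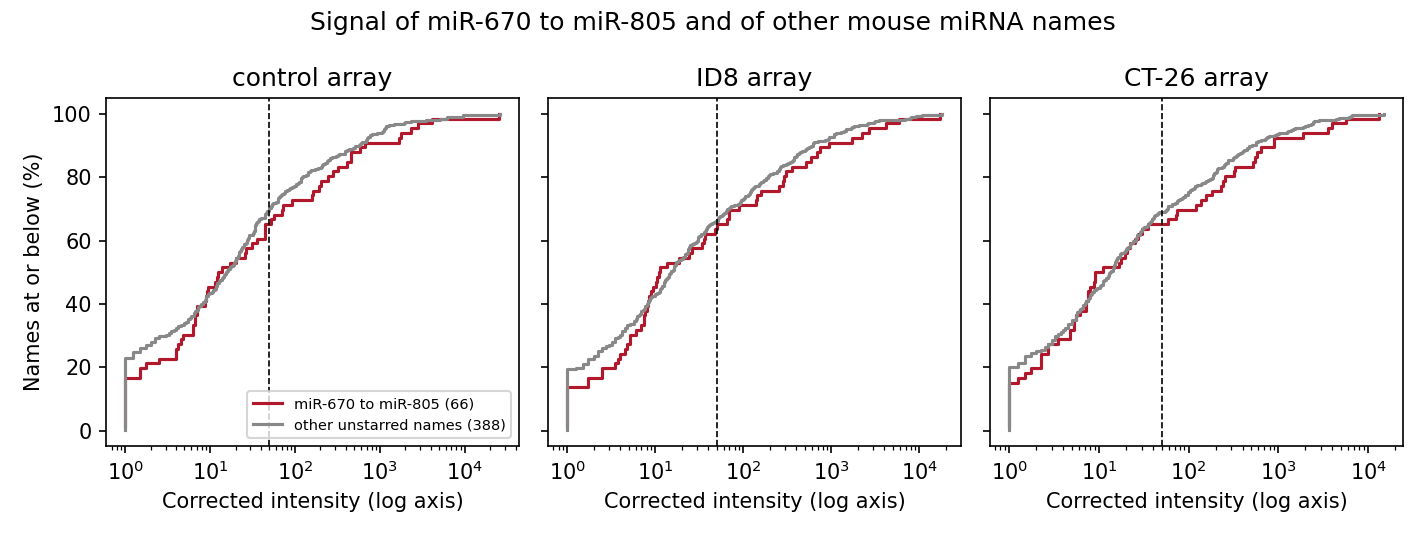
Share of names (vertical axis, %) at or below each background-corrected intensity (horizontal axis, units, log scale, values under 1 drawn at 1) on each of the 3 arrays, for the 66 miRNAs from miR-670 to miR-805 and for 388 other unstarred mouse names, using the brightest probe of a name. The dashed line is the floor of 50 units, which 34.8%, 36.4% and 34.8% of the 66 reached.

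The brightest member was miR-693-5p, whose gene lies within the span of Xpo5, the gene of the exportin that carries miRNA precursors out of the nucleus. Its probe read 25611 units in control, 17035 in ID8-exposed and 13111.5 in CT-26-exposed BMDCs, and it ranked 2nd among mouse names on all 3. It gave 11.1%, 6.92% and 6.45% of the summed signal of mouse names. The opposite arm, miR-693-3p, read -2, 1.75 and 2.25 units, no more than empty spots. Of that hairpin's 2 probes, only the 5p one gave signal above the floor.

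On the control array the next brightest members were miR-690, miR-691, miR-709, miR-678 and miR-801, in that order. miR-690, found in vesicles of mouse M2-type macrophages and reported to improve insulin sensitivity in mice, had normalized intensities of 12.6 in control, 14.6 in ID8-exposed and 16.7 in CT-26-exposed BMDCs. Normalized intensity is the corrected intensity divided by 1 constant per array and is used for all ratios. For miR-691, whose gene lies within the span of Robo2, the values were 8.67, 10.6 and 11.9. miR-709, reported in mouse to act in the nucleus on the processing of miR-15a and miR-16-1, had 7.22, 6.70 and 5.65. miR-690, miR-691 and miR-709 stayed within 2-fold between arrays, with log2 ratios from -0.35 to 0.46 against the control.

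**Figure D2:**
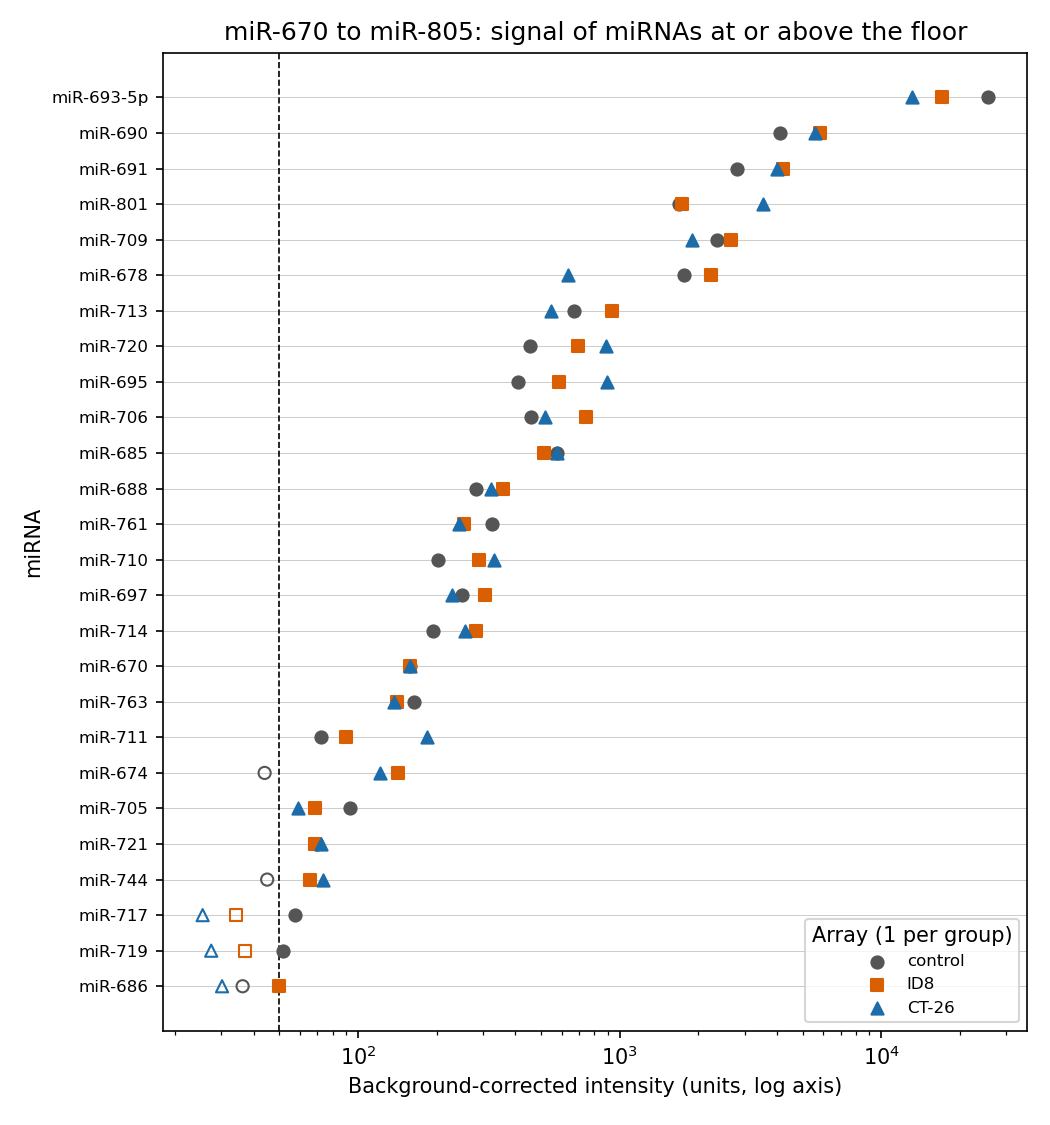
Background-corrected intensity (horizontal axis, units, log scale) of the 26 miRNAs that reached the floor of 50 units (dashed line) on at least 1 array, one row each, with a circle for the control, a square for ID8 and a triangle for CT-26 (1 array each); open symbols are under the floor. miR-693-5p stands highest at 25611 units on the control array, and miR-678 has its CT-26 value of 633.75 far to the left of the other arrays.

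The first comparison asked which of these miRNAs differed between BMDCs beside ID8 ovarian tumour cells and control BMDCs. Of the 21 measured on both arrays, 0 passed 2-fold upward and 0 downward in the ID8 co-culture. Over all 165 mouse names measured on both, 7.88% passed 2-fold, with 4.85% higher and 3.03% lower. The median log2 ratio was 0.01 over the 21 and 0.02 over all 165, and 17 of the 21 lay within 0.5 of 0. Log2 ratios ran from -0.88 for miR-693-5p to 0.41 for miR-706.

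A single miRNA of the range passed 2-fold beside ID8 cells, and only as a bound. Bounds past 2-fold were not counted over all mouse names, so this case cannot be set against a share. miR-674, known from rodents, read 44 units on the control array, under the floor, against 142.75 with ID8 cells and 121 with CT-26 cells. Set against the lowest normalized intensity of any mouse probe at the floor on the control array, it was at least 2.32-fold higher in the ID8 co-culture and at least 2.33-fold higher in the CT-26 co-culture. Between the co-cultures its log2 ratio was -0.01. The probe for the starred strand of the same hairpin read at most 7 units. The array name gives no arm, so both arms are printed above. The bounds here and below were taken with the authors' scaling only. The SNORD3@ probe had normalized intensities of 2.75, 3.47 and 3.71 in control, ID8 and CT-26, and U6-snRNA-2 had 7.76, 18.7 and 16.3. Scaling to either probe would therefore bring both bounds of miR-674 under 2-fold.

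Other miRNAs near the floor had weaker bounds. miR-744, which is conserved in human and lies within the span of the kinase gene Map2k4, read 45 units in control, 65.5 in ID8-exposed and 73.5 in CT-26-exposed BMDCs. It was at least 1.06-fold higher in the ID8 co-culture and at least 1.42-fold higher in the CT-26 co-culture. In the other direction miR-717, within the span of Gpc3, read 57.5, 34.25 and 25.5 units. miR-719 read 51.75, 37 and 27.5 units. These were thus at the floor on the control array alone, so that with ID8 cells the bounds were at least 1.41-fold and 1.27-fold lower, and with CT-26 cells at least 1.19-fold and 1.07-fold lower. miR-686, within the span of the proteasome gene Psmb5, stood exactly at 50 units on the ID8 array and under the floor on the others.

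The second comparison set BMDCs beside CT-26 colon tumour cells over control BMDCs. The same 21 miRNAs were measured, and 5 of them passed 2-fold. miR-711, miR-695 and miR-801 were higher (14.3% of the 21), and miR-678 and miR-693-5p were lower (9.52%). Over all 158 mouse names measured on both arrays, 20.3% passed 2-fold, with 13.3% higher and 6.96% lower, so the counts stood near those of the whole array. The median log2 ratio was 0.01 over the 21 and 0.01 over the 158. The ID8 and CT-26 ratios share the control array, so an error on it would enter both.

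miR-711, whose number is also used for a human miRNA and whose gene lies within the span of the collagen gene Col7a1, had the highest ratio. It read 72.5 units in control, 89.75 in ID8-exposed and 184.25 in CT-26-exposed BMDCs. The CT-26 value stood apart from the other two. The normalized intensity was 2.46-fold higher in the CT-26 co-culture than in the control, while ID8 over control had a log2 ratio of 0.01. Its control reading was close to the floor, and scaled to SNORD3@ or U6-snRNA-2 the CT-26 log2 ratio was 0.87 and 0.23.

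miR-695, within the span of Pigu, a gene for attachment of GPI anchors, had normalized intensities of 1.26 in control, 1.48 in ID8-exposed and 2.66 in CT-26-exposed BMDCs. It was 2.12-fold higher in the CT-26 co-culture than in the control. Beside ID8 cells its log2 ratio was 0.23. Scaled to U6-snRNA-2, the CT-26 log2 ratio of miR-695 was 0.01.

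Of 4 entries described as pieces of other non-coding RNAs, miR-801 and miR-720 gave signal, and miR-712 and miR-805 read at most 11 units. RefSeq lists mir-801 as a synonym of Rnu11, the U11 small nuclear RNA, a part of the minor spliceosome. The miR-801 probe had normalized intensities of 5.19 in control, 4.36 in ID8-exposed and 10.6 in CT-26-exposed BMDCs. The CT-26 array was thus the high one, 2.03-fold over the control, while ID8 over control had a log2 ratio of -0.25. The U6-snRNA-2 probe, for another small nuclear RNA, had 7.76, 18.7 and 16.3, higher on both co-culture arrays. Scaled to that probe, the CT-26 log2 ratio of miR-801 was -0.05, on the other side of 0.

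miR-720, reported in human cells to be a fragment of a transfer RNA, had normalized intensities of 1.39 in control, 1.75 in ID8-exposed and 2.64 in CT-26-exposed BMDCs. Its log2 ratio in the CT-26 co-culture was 0.92, just under 2-fold, and 0.33 in the ID8 co-culture. Scaled to U6-snRNA-2 the CT-26 value was -0.15.

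miR-678, within the span of the arginine methyltransferase gene Prmt2, had the lowest ratio. Its normalized intensity was 5.43 in control, 5.62 in ID8-exposed and 1.89 in CT-26-exposed BMDCs. The control and ID8 arrays were alike and the CT-26 array was the low one, 2.87-fold under the control. With corrected intensities between 633.75 and 2240 units it was far above the floor on every array.

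miR-693-5p had normalized intensities of 78.8 in control, 42.8 in ID8-exposed and 39.1 in CT-26-exposed BMDCs. Here the control array was the high one, and exposure to CT-26 and ID8 cells went with levels 2.01-fold and 1.84-fold lower. The highest value of any other unstarred name was 79.9, 45.3 and 44.5 on those arrays, and that of any starred name 54.4, 33.2 and 33.6. These maxima were taken on each array by itself and need not come from 1 probe. The highest values of other names thus also stood higher on the control array. Whether this pattern of the highest values bears on the miR-693-5p ratio was not tested. With arrays unscaled, the CT-26 log2 ratio of miR-693-5p was -0.97, and with quantile normalization it was 0, since its rank was the same on every array.

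**Figure D3:**
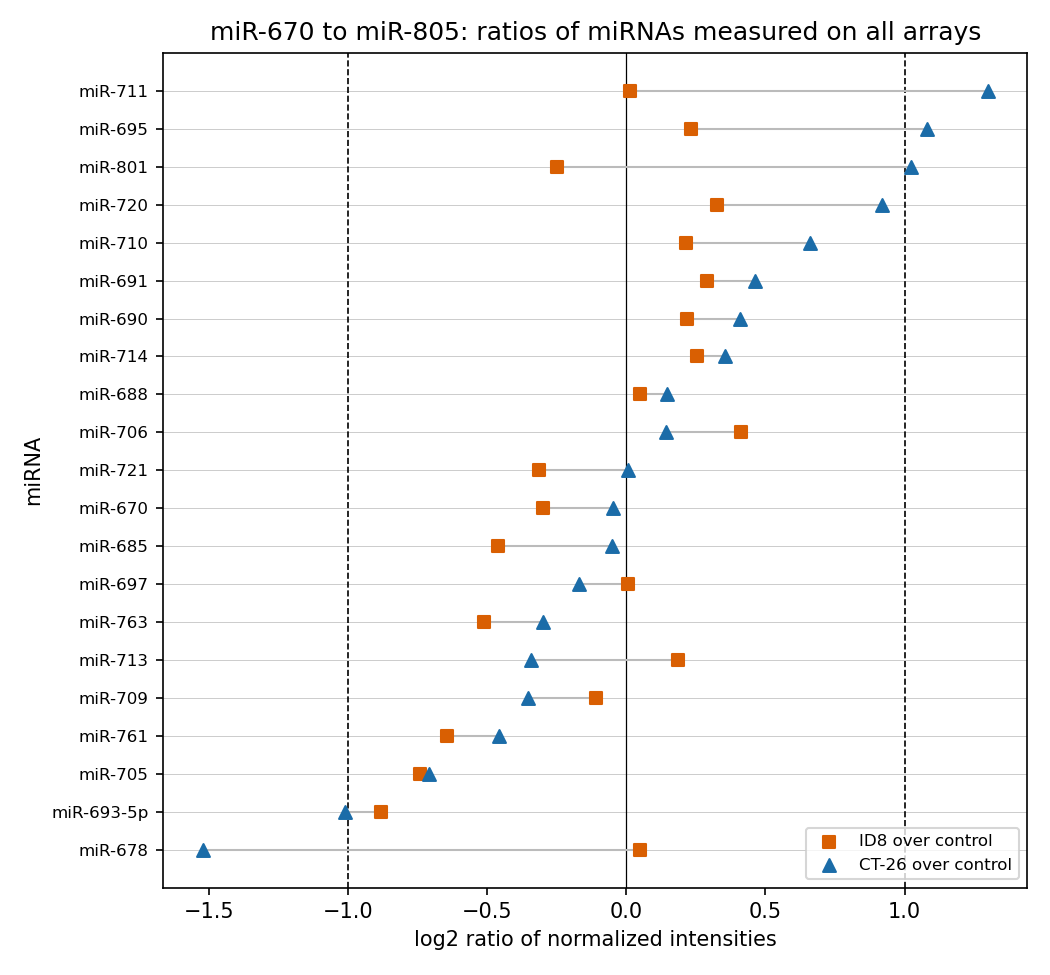
Log2 ratio of normalized intensity over the control array (horizontal axis) for the 21 miRNAs measured on all 3 arrays, one row each, with a square for ID8 and a triangle for CT-26 (1 array each) joined by a line; dashed lines mark 2-fold. All squares lie between -0.88 and 0.41, while 3 triangles lie to the right and 2 to the left of the 2-fold lines.

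The third comparison set the ID8 over the CT-26 co-culture, without the control array. Of 23 miRNAs measured on both, 1 passed 2-fold toward the ID8 side and 2 toward the CT-26 side. Over all 175 mouse names measured on both, 8.57% passed 2-fold, with 2.29% higher on the ID8 array and 6.29% higher on the CT-26 array. miR-678 had 2.98 times its CT-26 level in the ID8 co-culture, and miR-711 and miR-801 were 2.44-fold and 2.42-fold lower. miR-695 and miR-720 followed with log2 ratios of -0.85 and -0.59. In all, 17 of the 23 had a log2 ratio below 0, with a median of -0.19, against 58 of 119 other unstarred names, with a median of 0.01. Without scaling, which moves all names alike, the median of the 23 was 0.06 and that of all 175 names 0.24.

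The ratios depended on the scaling of the arrays to different degrees. Scaling to U6-snRNA-2 moved the median log2 ratio of all mouse names to -1.25 for ID8 over control and -1.06 for CT-26 over control, and scaling to SNORD3@ moved it to -0.31 and -0.42. Without scaling it was 0.32 and 0.05. Relative to those medians the order of the members was kept, because each of these scalings moves every name by the same amount. Under quantile normalization, which does not, the CT-26 log2 ratio was 0.97 for miR-711, 1.00 for miR-695, 0.90 for miR-801 and -1.63 for miR-678.

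**Figure D4:**
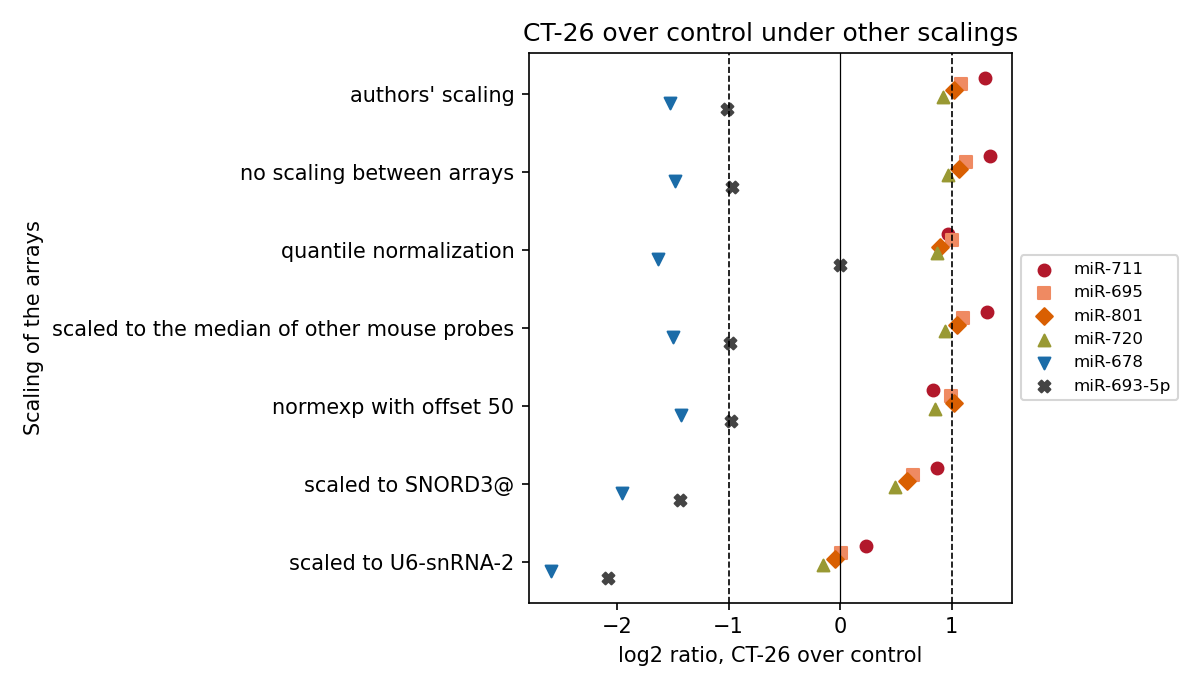
Log2 ratio of CT-26 over control (horizontal axis) for 6 miRNAs under each scaling of the arrays (rows); dashed lines mark 2-fold. miR-678 stays left of the 2-fold line in every row, while miR-801 moves from 1.02 with the authors' scaling to -0.05 when scaled to U6-snRNA-2.

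Another list held 14 names whose number is also used for a human miRNA. Entries described as pieces of other RNAs, such as miR-720 and miR-801, were listed apart and not counted here. Of the 14, 4 gave signal on at least 1 array, namely miR-711 and miR-744, described above, and miR-761 and miR-670. miR-761, reported to repress mitofusin 2 in mouse heart cells, read 325, 255 and 244.25 units in control, ID8-exposed and CT-26-exposed BMDCs, and the control was highest. Its log2 ratio was -0.64 in the ID8 and -0.46 in the CT-26 co-culture. miR-214, which has the same seed, had -0.35 in both. The rest of each sequence differs, as the lines above show. miR-670 read 158.25, 157.5 and 158 units, nearly the same on all 3 arrays, and its log2 ratios, which the scaling lowers, were -0.30 and -0.05.

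Both arms of miR-671 were under the floor, miR-671-5p at 25.75, 24.5 and 20.5 units. That arm is known for cutting the circular RNA CDR1as. The liver miRNA miR-802, raised in livers of obese mice, read 9, 6 and 17.5 units. miR-676, miR-718, miR-759, miR-760, miR-762 and both arms of miR-764, which lies within the span of the serotonin receptor gene Htr2c, read at most 17 units. Most names on this list of numbers also used for a human miRNA were therefore not detected above the floor. The same held for mouse names at large, of which 30.6% reached it in control, 33.5% in ID8-exposed and 31% in CT-26-exposed BMDCs. A reading under the floor does not show that a miRNA was absent.

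The X-linked cluster of miR-741, miR-742, miR-743a and miR-743b is known for expression in mouse testis. None of its 5 probes reached the floor. The highest was miR-743b-5p, with 26.75 units in control, 36.25 in ID8-exposed and 22.5 in CT-26-exposed BMDCs, while miR-743b-3p read at most -0.5. miR-743a read 20.5, 26.5 and 16.75 units, though its 3p arm has the seed of miR-743b-3p and 19 identical bases. The array name of miR-743a gives no arm, and what gave the signal under the floor was not tested.

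miR-706 holds a stretch that is also part of the mouse B1 repeat. Its first 16 bases, as AGAGAAACCCTGTCTC on either strand, occurred in 28 of 32851 RefSeq promoter windows of GRCm38.p6, or 0.0852%. The first 16 bases of each other mature sequence found occurred in at most 1 window. The miR-706 probe had normalized intensities of 1.40 in control, 1.87 in ID8-exposed and 1.55 in CT-26-exposed BMDCs, so the ID8 array was highest without passing 2-fold. miR-721 carries the seed of miR-130a and miR-301a, and with miR-130b and miR-301b it was reported to aid reprogramming of mouse fibroblasts. It read 69.75, 68.75 and 72.25 units, while miR-130a, miR-130b and miR-301a were under the floor on all arrays.

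The remaining miRNAs measured on all 3 arrays stayed within 2-fold in every comparison. miR-705, reported in mouse to restrain bone formation by marrow stromal cells, read 93.5 units in control, 68.5 in ID8-exposed and 59 in CT-26-exposed BMDCs, with log2 ratios of -0.74 and -0.71 over the control. miR-710 had normalized intensities of 0.625, 0.726 and 0.987, highest on the CT-26 array. miR-713 had 2.06, 2.34 and 1.63, with log2 ratios of 0.18 and -0.34. miR-685 had 1.78, 1.29 and 1.72, lowest on the ID8 array. miR-688, miR-697, miR-714 and miR-763 had log2 ratios between -0.51 and 0.36 over the control.

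Of the 40 miRNAs under the floor on all 3 arrays, 26 read at most 10 units everywhere. The closest to the floor was miR-681, with 45, 48.25 and 35.5 units. Among those near 0 was miR-696, which represses PGC-1alpha in mouse muscle, at 4, 7.5 and 2.25 units. miR-712, cut from a ribosomal RNA precursor in mouse endothelium, read 9.25, 5.25 and 7.25 units. The starred probes of miR-674, miR-676, miR-712, miR-742 and miR-744 were under the floor as well, at 14.5 units or less.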

How the data were processed

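Total RNA was labelled with Hy3 and hybridised to single-colour miRNA arrays, per the labels, and the series' design text names a GenePix 4000B scanner and GenePix Pro 6. The authors deposited raw, background-corrected and normalized intensity for 1408 probes, per the file headers. How spots were averaged is not given in the sources used here. Corrected divided by normalized intensity was 1 constant per array (325, 398.25 and 335.25 for control, ID8 and CT-26). It equals the median of the 159 mouse probes at 50 units or more on all arrays, 21 of which belong to the range studied. The series matrix holds the same values, so its scale is linear.

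Ratios were log2 differences of normalized intensity where both arrays reached 50 corrected units, with probes of a name averaged. Where a single array did, the bound is the brighter value over the smallest normalized intensity that any mouse probe at the floor had on the dim array. Sequences and gene spans came from RefSeq tables of GRCm38.p6, where 56 of 66 names matched a miRNA gene; strand was not compared. Names without an arm were matched to both arms. G+C content was set against signal only for the 38 of 66 names with an exact sequence. Its median was 50% for the 18 at the floor on an array and 53.45% for the 20 under it on all arrays. Other unstarred names with an exact sequence had 46.65% and 52.2%. Names without an exact sequence were left out, so no conclusion is drawn for the range. The ratio code was tested on simulated data. Alternatives were run with limma 3.58.1 (normexp), numpy 2.4.6 and pandas 2.3.3. The range and lists were chosen with earlier results of these data known. Named were miRNAs past 2-fold, the 10 brightest, members of the lists at the floor, and both arms of a number; others are named outside that rule. The number of arrays limits the precision.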

Additional observations from a re-analysis of the deposited data

Results flagged for a closer look

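Ratios over the control that had opposite signs for the 2 tumour lines, at least 2-fold apart, were found for 2 miRNAs. miR-678 had a log2 ratio of 1.57 for ID8 over CT-26, from 0.05 and -1.52 over the control. miR-801 had a log2 ratio of -1.27 for ID8 over CT-26, from -0.25 and 1.02 over the control. With 1 array per group these differences were not tested. The opposite signs depended on the scaling. ID8 over control was -0.07 for miR-678 with quantile normalization and 0.04 for miR-801 without scaling, each then with the sign of its CT-26 ratio.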

How the results depend on the processing

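Each choice was changed in turn, and the cause of a moved count was not tested unless the change itself gives it (fewer names, another threshold). No paired analysis was possible because each group has 1 array. For CT-26 over control, the counts of 3 higher and 2 lower were 3 and 1 without scaling, 1 and 1 with quantile normalization, 0 and 11 scaled to U6-snRNA-2, 0 and 3 scaled to SNORD3@, 1 and 1 with normexp, 4 and 7 with no floor, 5 and 3 at 1.5-fold and 0 and 0 at 4-fold. Scaled to the median of other mouse probes, an alternative chosen after seeing the data, they were 3 and 1. Over all 158 mouse names measured, the higher and lower counts were 22 and 10 without scaling and 17 and 12 with quantile normalization. They were 1 and 83 scaled to U6-snRNA-2, 10 and 31 scaled to SNORD3@, and 14 and 8 with normexp. At 1.5-fold they were 36 and 29, at 4-fold 3 and 2, and scaled to other mouse probes 21 and 10. With no floor 55 members were measured, and the counts were 63 and 71 of 442 names. For ID8 over control, the counts of 0 and 0 were 0 and 18 scaled to U6-snRNA-2 and 0 and 2 scaled to SNORD3@. They were 2 and 4 with no floor and 0 and 3 at 1.5-fold. All 165 mouse names gave 1 and 117 scaled to U6-snRNA-2, 3 and 10 scaled to SNORD3@, and 15 and 12 at 1.5-fold. With no floor 54 members were measured, and the counts were 46 and 50 of 445 names. For ID8 over CT-26, 1 higher and 2 lower became 1 and 1 with normexp and at floors of 100 and 200. They were also 1 and 1 among the 18 measured miRNAs with a RefSeq sequence. With no floor 4 were higher, at 1.5-fold 4 were lower, and at 4-fold the counts were 0 and 0. All 175 mouse names gave 4 and 7 with normexp, 11 and 18 at 1.5-fold and 1 and 1 at 4-fold. At floors of 100 and 200, the counts were 3 and 7 of 133 names and 2 and 7 of 104. With no floor 58 members were measured, and the counts were 34 and 32 of 474 names. Scaled to U6-snRNA-2, the median log2 ratio was -1.25 for ID8 and -1.06 for CT-26 over control, as for all mouse names. The CT-26 ratio of miR-801 turned from 1.02 to -0.046 (log2) there. miR-678 stayed past 2-fold under all 9 alternatives for CT-26 over control (log2 -2.59 to -1.42) and for ID8 over CT-26 (1.38 to 1.82), and miR-801 under all 9 for ID8 over CT-26. miR-711, near the floor on the control array, could not be measured there at a floor of 100.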
